A study of Mus musculus with 48 samples.

Results

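The 41 genes described here encode the Wnt ligands (18 genes), the Frizzled receptors (10 genes), the co-receptors Lrp5, Lrp6, Ror1, Ror2 and Ryk (5 genes) and the secreted modulators Dkk1, Dkk2, Sfrp1, Sfrp2, Sfrp4, Sfrp5, Frzb and Wif1 (8 genes). They were chosen by symbol, and all 41 were found among the 48709 gene IDs of the neuron RNA tables and the 47729 of the whole CA RNA tables. The study compared mice with a conditional knockout of Setd1b (cKO), which encodes an H3K4 methyltransferase, with control mice, all C57BL/6J animals aged 4 to 6 months. RNA was measured in neurons of the hippocampal CA region (3 cKO and 3 Control libraries) and in the whole CA region (6 cKO and 6 Control libraries). The labels do not state how the neuron RNA was isolated, so whether it came from whole cells or from nuclei is not known here. Peaks of H3K4me3, H3K4me1, H3K27ac and H3K9ac were called in sorted neuronal nuclei, with 3 or 4 libraries per mark and genotype. The labels name neither the floxed allele nor the Cre line. From knowledge of the study, recombination was driven by the CaMKII promoter, which is active in excitatory forebrain neurons after birth, so that other cells of the tissue keep the gene. The labels do not say whether the libraries of a group came from separate mice, and p-values then measure the spread between these libraries, which may be technical.

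Wnt proteins are secreted lipid-modified ligands that bind the extracellular domain of Frizzled receptors. With Lrp5 or Lrp6 as co-receptor they stabilise β-catenin, which acts with TCF/LEF factors on target genes, whereas Ror and Ryk receptors carry signals that do not need β-catenin. Secreted Frizzled-related proteins and Wif1 bind the ligands, and Dkk proteins bind the Lrp co-receptors. In the hippocampus the pathway is known for its part in forming the structure in the embryo and, in adults, in dentate neurogenesis and in the growth of dendrites and synapses.

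Depth was 55.7 to 69.1 M reads per library for neurons and 14.9 to 20.1 M for the whole region, of which the 41 genes took 0.0365 to 0.0382% and 0.0309 to 0.0347%. Setd1b itself, counted over the whole gene, did not have fewer reads in libraries with a cKO label, with means of 64.6 (cKO) and 54.5 (Control) in neurons and 59.4 and 39.6 in the whole region, in CPM (reads scaled to library size). Loss of the deleted exons was not measured, so the genotypes below are those of the labels. The summed level of 5 neuron markers was 5186 to 5283 CPM in control neuron RNA and 10981 to 12059 CPM in control whole CA RNA, with 4 of the 5 lower in neuron RNA. The 5 astrocyte markers summed to 25.4 to 32.1 CPM there against 1448 to 1727 CPM in control whole CA RNA, with no marker at 0 in all libraries.

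The promoters shown first are those of the genes at whose starts a histone mark was called different between genotypes (below), and the Wnt3a call is no support. H3K4 methyltransferase complexes of the Setd1 type contain a protein that binds unmethylated CpG. Whether CpG content goes with these calls was not tested. RefSeq (GRCm38.p6) gives 33 gene starts for 30 of the 41 genes, and the 300-base promoters there (250 bases before and 50 after the start) held a median of 26 CpG dinucleotides, against 7 over all 32851 promoters in the table. At least 20 CpG were found in 23 of the 33 promoters, and in 26.5% of all promoters. The promoters at starts with a mark call held 10 (Ror1) to 45 (Wnt3a and Fzd10) CpG in the 300 bases. Those without a call held 4 (second start of Wnt5b) to 58 (Wnt9a). The 250 bases before each start are printed 5′ to 3′ on the gene's strand, with every CpG in capitals. For Wnt2 the start used is the one of the table, since the RefSeq gene span begins farther upstream, at 18032772.
Wnt3a, chr11:59290752-59291001, minus strand: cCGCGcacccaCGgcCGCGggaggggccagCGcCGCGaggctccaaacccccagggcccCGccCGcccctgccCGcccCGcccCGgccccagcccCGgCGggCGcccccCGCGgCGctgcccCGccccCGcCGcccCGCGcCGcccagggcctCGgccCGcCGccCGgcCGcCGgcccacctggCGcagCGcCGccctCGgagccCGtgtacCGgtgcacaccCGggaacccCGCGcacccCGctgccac
Wnt2, chr6:18030446-18030695, minus strand: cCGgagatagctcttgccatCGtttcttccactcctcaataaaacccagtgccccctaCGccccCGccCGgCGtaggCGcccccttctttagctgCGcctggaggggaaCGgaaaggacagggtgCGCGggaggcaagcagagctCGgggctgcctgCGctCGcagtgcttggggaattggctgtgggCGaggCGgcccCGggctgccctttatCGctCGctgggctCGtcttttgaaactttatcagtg
Fzd10, chr5:128600856-128601105, plus strand: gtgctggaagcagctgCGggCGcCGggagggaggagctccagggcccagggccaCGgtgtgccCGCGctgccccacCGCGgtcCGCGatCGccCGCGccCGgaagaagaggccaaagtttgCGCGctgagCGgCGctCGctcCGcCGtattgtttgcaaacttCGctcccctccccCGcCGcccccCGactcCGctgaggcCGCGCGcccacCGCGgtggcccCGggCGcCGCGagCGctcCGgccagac
Frzb, chr2:80447397-80447646, minus strand: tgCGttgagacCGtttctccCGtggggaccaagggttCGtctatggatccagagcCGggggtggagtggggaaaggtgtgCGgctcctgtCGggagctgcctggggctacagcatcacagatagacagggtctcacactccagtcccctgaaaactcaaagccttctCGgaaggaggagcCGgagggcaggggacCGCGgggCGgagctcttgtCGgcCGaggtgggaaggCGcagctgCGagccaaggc
Ror1, chr4:100095541-100095790, plus strand: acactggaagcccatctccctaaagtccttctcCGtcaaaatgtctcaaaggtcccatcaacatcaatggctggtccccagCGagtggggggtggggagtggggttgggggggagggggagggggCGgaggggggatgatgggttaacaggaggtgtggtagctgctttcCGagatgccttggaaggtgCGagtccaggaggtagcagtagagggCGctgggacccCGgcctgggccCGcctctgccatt

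In these stretches the promoter of Fzd10 held 37 CpG and that of Wnt3a 41, those of Wnt2 and Frzb 20 and 16, and that of Ror1 8. The core of the TCF/LEF site (the letters CTTTGNN with A or T in place of each N, on either strand) was found in 5 of the 33 promoters, those of Fzd7, Wnt3, Wnt11, Dkk1 and the third start of Wnt5b, and in 16.9% of all promoters. A match of these letters is a description and not a measured site. The Wnt11 match is shown because Wnt11 is the one gene of these 5 that differed between genotypes in RNA (below), and it lies 51 bases before the start, in capitals.
Wnt11, chr7:98834862-98835111, plus strand: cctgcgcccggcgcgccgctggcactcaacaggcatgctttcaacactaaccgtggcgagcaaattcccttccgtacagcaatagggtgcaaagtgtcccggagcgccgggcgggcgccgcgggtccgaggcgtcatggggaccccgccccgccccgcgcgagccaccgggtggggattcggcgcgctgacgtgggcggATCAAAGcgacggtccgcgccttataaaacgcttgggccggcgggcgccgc

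In neuron RNA, 8 of the 37 genes with enough reads were called different between genotypes, or 7 without Wnt3a, which was tested through its Control reads alone. Lower in cKO were the ligands Wnt2, Wnt3a and Wnt11, the receptors Fzd8 and Fzd10 and the ligand-binding antagonist Frzb, and higher were the ligands Wnt5a and Wnt10b. The call rests on edgeR's quasi-likelihood test over 19622 genes at an adjusted p under 0.05. By that rule 2.75% of all genes tested were called, 2% lower and 0.744% higher. An unadjusted p under 0.05 was reached by 15 of the 37 genes and by 17.2% of all genes. The median log2 ratio of cKO to Control was -0.13 over the 37 genes and 0.02 over all genes tested, and 25 of the 37 lay below 0. Wnt3a is in both the 15 and the 25. The count of 8 fell to 4 without cKO replicate 1, and to 5 without cKO replicate 2, Control replicate 2 or Control replicate 3. Wnt3a was called in each of these fits and is in all of these counts.

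In whole CA RNA, 3 of the 30 genes with enough reads were called, all lower in cKO, namely Wnt2, Fzd10 and Frzb. Over all 15362 genes tested, 4.17% were called (2.79% lower, 1.38% higher). The median log2 ratio of the 30 genes was -0.06, against -0.0027 over all genes, and 8 of them had an unadjusted p under 0.05, as did 15.7% of all genes. DESeq2 called 3 lower and 1 higher. Its share over all genes is not given here, and the 4.17% is that of edgeR, so the DESeq2 count has no background beside it. Wnt2, Fzd10 and Frzb were also called lower in neuron RNA, where they are 60% of the 5 called genes that could be tested in both materials. Over all genes that share was 44.6% of 462, and both materials called 1.38% of the 14967 genes tested in both. The direction matched in 18 of the 30 genes tested in both materials and in 55.5% of all genes. In bulk RNA, fewer cells of a type and less RNA per cell cannot be told apart.

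**Figure D1:**
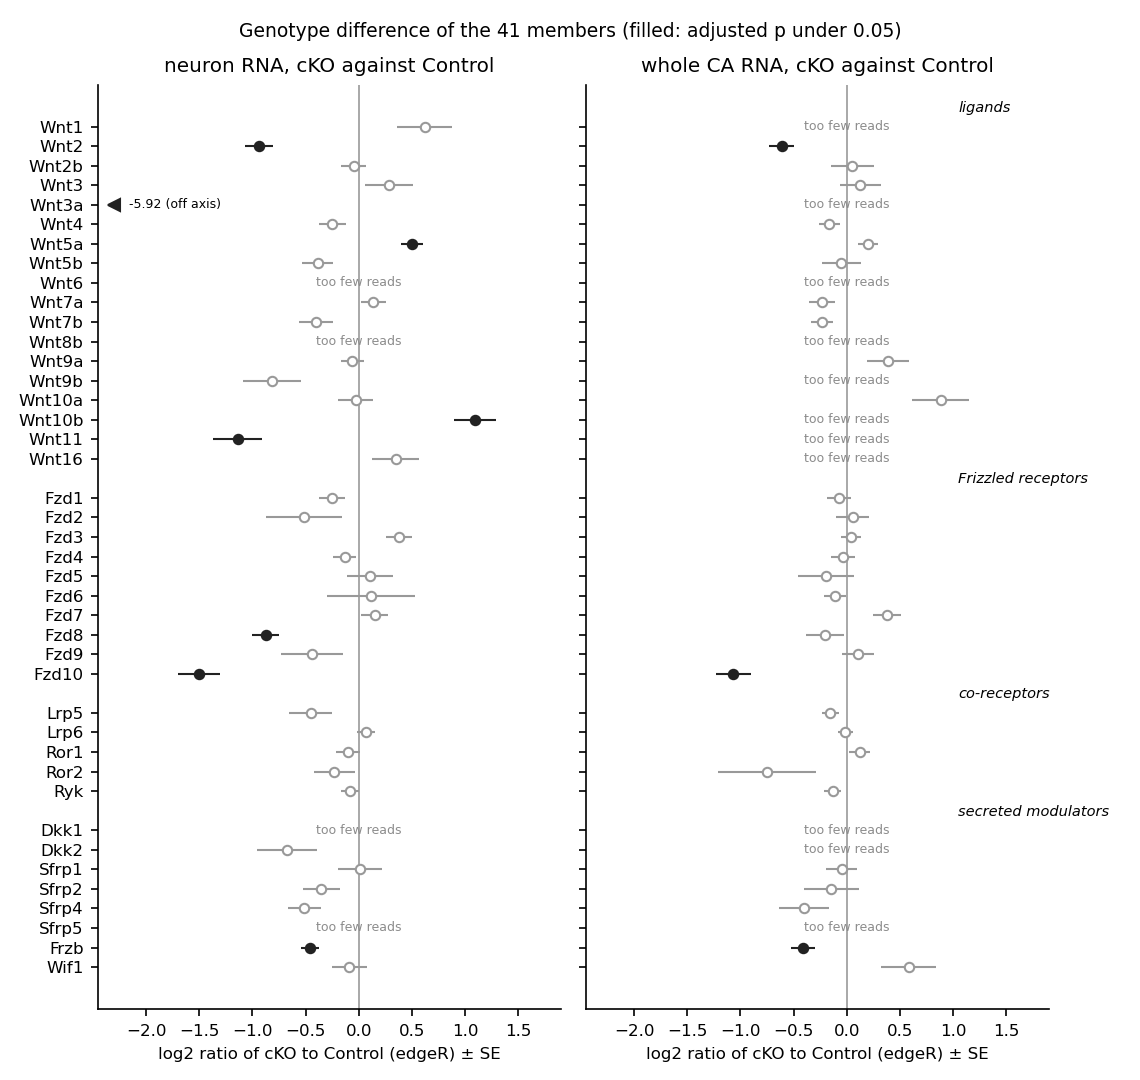
Log2 ratio of cKO against Control with its standard error for the 41 genes (rows, by class), in neuron RNA (left, 3 against 3 libraries) and whole CA RNA (right, 6 against 6). Filled points passed an adjusted p under 0.05 (8 genes on the left, 3 on the right), genes with too few reads are named as such, and Wnt3a lies off the left axis.

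Among the ligands, Wnt2, which promotes dendrite growth in hippocampal neurons, was lower in cKO in both materials. In neuron RNA it measured 7.49, 6.08 and 6.60 CPM in the Control libraries and 3.27, 3.32 and 3.94 CPM in the cKO libraries. The groups were apart, and cKO over Control gave a log2 ratio of -0.94 ± 0.13 (SE; edgeR adjusted p = 0.00432). Whole CA Control libraries ran from 6.04 to 9.53 CPM (median 8.41, n = 6) and the cKO libraries from 4.62 to 5.76 CPM (median 5.34, n = 6), again with no overlap. The whole CA log2 ratio was -0.61 ± 0.12 (SE; edgeR adjusted p = 0.00418). Groups without overlap were found in 18 of the 37 genes in neurons (13 lower, 5 higher) and in 2 of the 30 in the whole region (both lower). The 13 include Wnt3a, which was tested through its Control reads alone and had to be apart. Over all genes they were found in 23.9% (12.4% lower, 11.4% higher) and 3.08% (1.93% lower, 1.15% higher).

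Wnt3a, the ligand of the embryonic cortical hem from which the hippocampus is patterned, was nearly absent from the cKO libraries. Its reads numbered 37, 22 and 25 in the neuron Control libraries and 1, 0 and 0 in the cKO libraries. Scaled to library size, the summed Control reads (84) were 82.3 times the summed cKO reads (1), with a 95% counting interval of 14.4 to 3290. The gene passed the filter on low counts through its Control libraries alone, so that it had to differ, and its call is no support. DESeq2 gave no adjusted p for it. Levels were low throughout, at 0.358 to 0.612 CPM in Control neurons. Too few reads were counted in whole CA RNA for a test, where 5 of 6 Control libraries held 3 to 6 reads and 1 held 0, whereas 5 of 6 cKO libraries held 0 and 1 held 2. The sums there were 20 against 2 reads, a ratio of 10.3 with a counting interval of 2.51 to 91.2. These intervals cover counting error only.

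Wnt11, a ligand known mainly for β-catenin-independent signals, measured 3.23, 3.28 and 2.08 CPM in Control neurons and 1.56, 0.951 and 1.37 CPM in cKO neurons. The groups were apart, and cKO over Control gave a log2 ratio of -1.14 ± 0.23 (SE; edgeR adjusted p = 0.0332). The call was lost without cKO replicate 1, cKO replicate 2, Control replicate 1 or Control replicate 2, with adjusted p between 0.0691 and 0.0976. Whole CA libraries held 6 to 17 reads of the gene, which was not tested there. Its Control libraries ran from 0.472 to 1.01 CPM and its cKO libraries from 0.305 to 0.705 CPM, so the groups overlapped.

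Wnt10b, a ligand that signals through β-catenin and holds back fat-cell formation, was higher in cKO. RefSeq places it on the minus strand at chr15:98770712-98778206 (GRCm38.p6). In neuron RNA the cKO libraries measured 6.23, 4.02 and 5.87 CPM and the Control libraries 3.06, 2.42 and 2.09 CPM. Every cKO library exceeded every Control library, and the log2 ratio was 1.09 ± 0.20 (SE; edgeR adjusted p = 0.0186). Leaving out cKO replicate 1, Control replicate 2 or Control replicate 3 took the call away (adjusted p = 0.115, 0.0618 and 0.0812). Only 1 to 11 reads per library were counted in whole CA RNA, and the gene was not tested. The sums there were 48 cKO reads against 20 Control reads, a ratio of 2.32 with a counting interval of 1.35 to 4.13. That interval covers counting error only and not the spread between libraries. The groups overlapped, at 0.0613 to 0.416 CPM in Control and 0.332 to 0.612 CPM in cKO.

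Wnt5a, the best-known ligand of the β-catenin-independent branch, lies at chr14:28504543-28527448 (GRCm38.p6). It measured 15.3, 19.0 and 16.9 CPM in Control neurons and 23.8, 25.7 and 23.1 CPM in cKO neurons. The groups were apart, and cKO over Control gave a log2 ratio of 0.50 ± 0.10 (SE; edgeR adjusted p = 0.0352). Without cKO replicate 1, cKO replicate 2, Control replicate 1 or Control replicate 3 the adjusted p was 0.0606 to 0.139. The whole CA groups overlapped, at 10.4 to 13.96 CPM (median 11.4) in Control and 11.6 to 15.7 CPM (median 13.4) in cKO. The whole CA log2 ratio was 0.20 ± 0.09 (SE), with an edgeR adjusted p of 0.309.

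Wnt7b, which acts on dendrite growth, had the most reads of the ligands in whole CA RNA and also in Control neuron RNA. It measured 26.4, 21.8 and 20.3 CPM in Control neurons and 13.4, 18.3 and 20.1 CPM in cKO neurons. Whole CA levels ran from 31.8 to 43.6 CPM (median 39.8) in Control and from 27 to 41.9 CPM (median 31.3) in cKO. The log2 ratios were -0.40 and -0.23 (edgeR adjusted p = 0.238 and 0.287), so neither was called. Wnt3, a ligand that promotes neuronal differentiation of adult hippocampal progenitors, measured 0.480 to 0.579 CPM in Control neurons and 0.639 to 0.661 CPM in cKO neurons (edgeR adjusted p = 0.558). Its whole CA libraries overlapped, at 1.15 to 2.14 CPM in Control and 1.14 to 1.95 CPM in cKO (edgeR adjusted p = 0.837).

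Wnt genes lie in pairs on several mouse chromosomes. Wnt3a and Wnt9a lie 16.1 kb apart on chromosome 11, and Wnt9a, at 10.1 to 11.9 CPM in Control neurons and 9.72 to 11.2 CPM in cKO neurons, had a log2 ratio of -0.06 (edgeR adjusted p = 0.804). Wnt10b and Wnt1 lie 11.7 kb apart on chromosome 15. Wnt1 measured 0.374 to 0.698 CPM in Control neurons and 0.826 to 0.856 CPM in cKO neurons, a log2 ratio of 0.62 that was not called (edgeR adjusted p = 0.269). Wnt9b and Wnt3 overlap by 1.1 kb in RefSeq, and how the authors' counting treated reads there is not given in the sources used here, so values of both are uncertain.

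**Figure D2:**
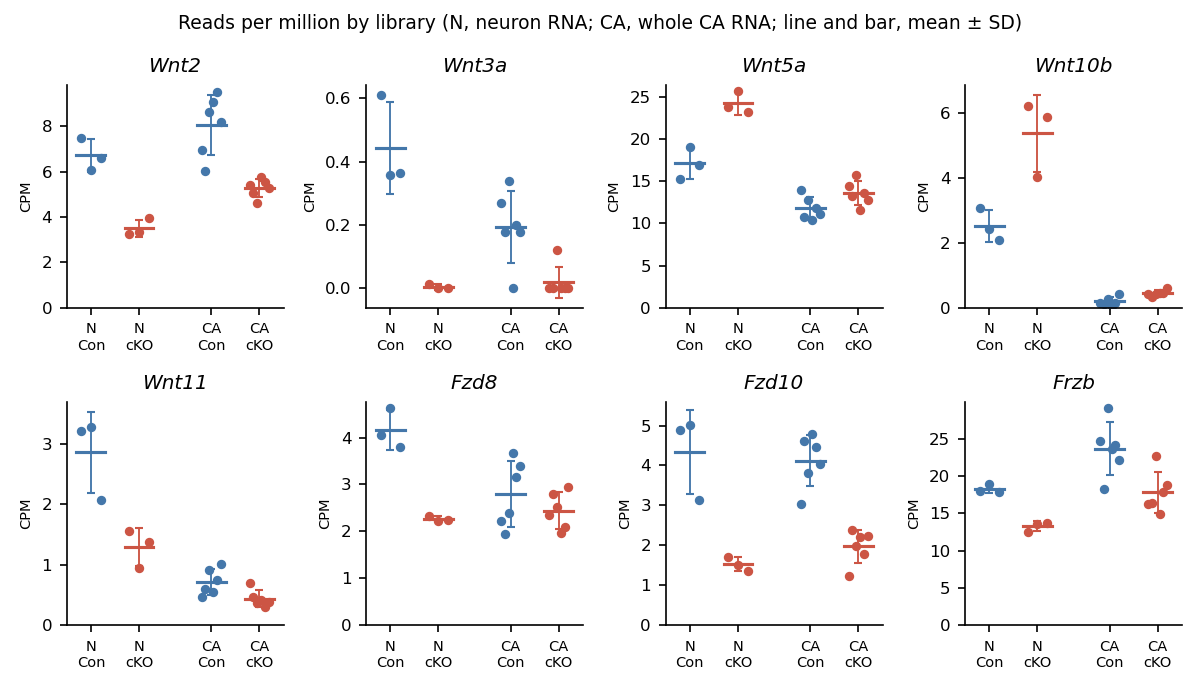
CPM (y axis, linear) in each library for the 8 genes called in neuron RNA, with neuron (N) and whole CA (CA) libraries of Control (Con, blue) and cKO (red), and the mean ± SD as line and bar. In neuron RNA the groups of all 8 genes, which were picked by their call, are apart, and those of Wnt3a had to be. In whole CA RNA the groups of Wnt2 and Fzd10 are apart.

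Of the 10 Frizzled receptors, all were tested in both materials and 2 were called in neuron RNA. Fzd10 fell further than any other receptor in both materials. In neuron RNA it measured 4.88, 5.01 and 3.12 CPM in Control and 1.71, 1.51 and 1.36 CPM in cKO, so that the highest cKO library lay below the lowest Control library. The log2 ratio was -1.50 ± 0.20 (SE; edgeR adjusted p = 0.00371). In whole CA RNA the Control libraries ran from 3.04 to 4.78 CPM (median 4.25) and the cKO libraries from 1.23 to 2.39 CPM (median 2.1), without overlap. The log2 ratio there was -1.07 ± 0.17 (SE; edgeR adjusted p = 0.000507).

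Fzd8 was called lower in neuron RNA, where Control libraries measured 4.05, 4.63 and 3.79 CPM and cKO libraries 2.33, 2.21 and 2.25 CPM. The groups were apart, with a log2 ratio of -0.88 ± 0.13 (SE; edgeR adjusted p = 0.0061). In whole CA RNA the groups overlapped, at 1.95 to 3.68 CPM (median 2.77) in Control and 1.95 to 2.95 CPM (median 2.44) in cKO, and the edgeR adjusted p was 0.66. Fzd3, a receptor of axon guidance and planar polarity, had the most Frizzled reads in both materials. It measured 16.03, 17.8 and 14.7 CPM in Control neurons and 18.1, 24.1 and 20.8 CPM in cKO neurons (log2 ratio 0.38, edgeR adjusted p = 0.163). Its whole CA levels ran from 26.2 to 38.9 CPM in Control and from 29.2 to 35.6 CPM in cKO, a log2 ratio of 0.04. The other 7 Frizzled genes had log2 ratios between -0.51 (Fzd2) and 0.15 (Fzd7) in neuron RNA, and none was called. Their whole CA log2 ratios lay between -0.19 (Fzd5) and 0.38 (Fzd7, edgeR adjusted p = 0.138), also without a call.

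None of the 5 co-receptors was called in either material, and none had an unadjusted p under 0.05 in edgeR. Lrp6, the co-receptor of β-catenin signalling with the most reads of all 41 genes, measured 126, 138 and 136 CPM in Control neurons and 149, 139 and 133 CPM in cKO neurons. The groups overlapped, with a log2 ratio of 0.07 ± 0.08 (SE; edgeR adjusted p = 0.697). Whole CA libraries ran from 60.4 to 76.1 CPM in Control and from 61.6 to 74.4 CPM in cKO. Its partner Lrp5 measured 1.09, 0.943 and 1.003 CPM in Control neurons and 0.811, 0.624 and 0.785 CPM in cKO neurons. Although those groups were apart, the edgeR adjusted p was 0.291. Ror1, a receptor tyrosine kinase that binds Wnt5a, measured 16.2, 16.2 and 16.02 CPM in Control and 17.6, 13.1 and 14.4 CPM in cKO neurons (edgeR adjusted p = 0.692).

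Frzb was the called secreted modulator, in both materials. It encodes sFRP3, a ligand-binding antagonist that is known to be made by dentate granule cells and to restrain adult hippocampal neurogenesis. In neuron RNA it measured 17.99, 18.9 and 17.8 CPM in Control and 12.5, 13.6 and 13.8 CPM in cKO, with no overlap and a log2 ratio of -0.46 ± 0.09 (SE; edgeR adjusted p = 0.0263). Whole CA libraries overlapped, at 18.3 to 29.2 CPM (median 23.9) in Control and 14.9 to 22.8 CPM (median 17.1) in cKO, with a log2 ratio of -0.41 ± 0.11 (SE; edgeR adjusted p = 0.0392). The call was lost in 5 of 6 neuron fits and 9 of 12 whole CA fits that left out 1 library, with adjusted p up to 0.107 and 0.105. In neuron RNA only the fit without Control replicate 1 kept it, and in whole CA RNA only those without cKO replicate 3, cKO replicate 6 or Control replicate 2. Sfrp4 measured 3.92, 3.54 and 2.91 CPM in Control and 2.73, 2.40 and 2.12 CPM in cKO neurons, apart but not called (log2 ratio -0.51, edgeR adjusted p = 0.14). Sfrp1, another ligand-binding antagonist, measured 1.47 to 2.21 CPM in Control and 1.44 to 2.07 CPM in cKO neurons, a log2 ratio of 0.01.

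The whole CA libraries were sequenced in 2 lanes, named in the file names, with replicates 1 to 3 in lane 1 and 4 to 6 in lane 2. Within lane 1 the log2 ratios were -0.52 for Wnt2, -1.04 for Fzd10 and -0.38 for Frzb, with edgeR adjusted p of 0.244, 0.0974 and 0.39. Within lane 2 they were -0.69, -1.09 and -0.44, with adjusted p of 0.0354, 0.0185 and 0.109. Each lane holds 3 libraries per genotype.

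Of the cell-type markers, 3 of the 40 tested in neuron RNA were called (7.5%, against 2.75% of all genes). In whole CA RNA 4 of 45 were called (8.89%, against 4.17% of all genes), and all calls in both materials were lower in cKO. None was called in the neuron, interneuron, oligodendrocyte, oligodendrocyte precursor, endothelium, mural cell or meningeal fibroblast lists in either material. The 3 dentate granule cell markers Prox1, C1ql2 and Dsp summed to 148 to 174 CPM in Control and 112 to 146 CPM in cKO neurons, and for the whole region to 51.5 to 79.9 and 28.7 to 71.0 CPM. Of these 3 genes, 2 were called lower in neuron RNA (C1ql2 and Dsp) and 1 in whole CA RNA (Dsp), and none was at 0 in all libraries. Prox1 had a log2 ratio of -0.02 in neuron RNA. In whole CA RNA all 3, Prox1 among them, lay below 0 (50.8% of all genes), with log2 ratios from -0.96 to -0.35. An unadjusted p under 0.05 was reached there by 2 of the 3 (15.7% of all genes). The 4 choroid plexus markers summed to 26.7 to 29.2 CPM in Control and 12.8 to 14.6 CPM in cKO neurons, and for the whole region to 30.8 to 37.6 and 17.9 to 21.4 CPM, with 1 gene, Kl, called lower in each material. Kl alone held 27.6 CPM of the Control and 13.1 CPM of the cKO neuron mean, and Ttr, Folr1 and Clic6 reached at most 0.488 CPM in any neuron library, so the sum follows Kl. In whole CA RNA 1 of 5 microglia markers and 1 of 5 astrocyte markers were also called lower, with sums of 262 to 322 and 1448 to 1727 CPM in Control and 233 to 257 and 1342 to 1488 CPM in cKO. In neuron RNA no microglia or astrocyte marker was called. The part of these cells in the Wnt, Frizzled and Frzb differences was not tested.

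Whether the genotype difference itself differed between materials was tested in one fit over all 18 RNA libraries. None of the 36 genes tested was called, by edgeR or by DESeq2, against 0.16% of all 17523 genes called. An unadjusted p under 0.05 was reached by 5 of the 36 (8.11% of all genes), namely Wnt5a, Wnt9b, Wnt10a, Fzd3 and Fzd8. For Fzd8 the log2 ratio in neurons less that in whole CA was -0.66 (edgeR adjusted p = 0.534). For Wnt9b, a ligand of kidney development, the values in the 2 materials had opposite signs. It measured 0.480 to 0.695 CPM in Control and 0.281 to 0.390 CPM in cKO neurons (109 against 61 reads), but 0 to 0.401 CPM in Control and 0.257 to 0.946 CPM in cKO whole CA libraries (19 against 66 reads). The difference of the log2 ratios was -2.54 ± 0.61 (SE; edgeR adjusted p = 0.146), and without a filter on low counts it was the 1 gene of the 41 that was called. Wnt10a measured 0.653 to 1.504 CPM in Control and 1.12 to 2.84 CPM in cKO whole CA libraries (edgeR adjusted p = 0.0741), and 1.92 to 2.60 against 1.997 to 2.46 CPM in neurons.

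In 4 genes reads were too few for a test in neuron RNA, with 1 to 6 reads per library for Wnt6, 0 to 3 for Wnt8b, 0 to 5 for Dkk1 and 3 to 11 for Sfrp5. Whole CA RNA lacked a test for these 4 and for Wnt1, Wnt3a, Wnt9b, Wnt10b, Wnt11, Wnt16 and Dkk2. Wnt6 and Dkk1 held 0 reads in all 6 whole CA Control libraries. The remaining tested genes, Wnt2b, Wnt4, Wnt5b, Wnt7a, Wnt16, Ryk, Ror2, Dkk2, Sfrp2 and Wif1, were not called, with neuron log2 ratios from -0.67 (Dkk2) to 0.35 (Wnt16). Those also tested in whole CA RNA had log2 ratios there from -0.75 (Ror2, edgeR adjusted p = 0.477) to 0.58 (Wif1, edgeR adjusted p = 0.276).

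Control neuron RNA and control whole CA RNA differed in most of these genes, 31 of the 36 tested (17 higher and 14 lower in neuron RNA), as they did in 83% of all genes (43.2% higher, 39.8% lower). Of the 15 ligands tested, 11 were higher and 4 lower in neuron RNA, and of the 10 Frizzled genes 1 was higher and 7 were lower. On the scale shared by both materials, Fzd2 measured 0.183 CPM in neuron and 4.68 CPM in whole CA libraries (means, SD 0.0439 and 0.876, n = 3 and 6), a log2 difference of -4.65. Fzd6 and Fzd9 were lower in neuron RNA by log2 differences of -4.45 and -2.89, and Fzd8, the Frizzled gene that was higher, differed by 0.39 (edgeR adjusted p = 0.035). That call was lost without neuron Control replicate 1 or 2 or whole CA Control replicate 1, 2 or 3, with adjusted p of 0.0582 to 0.135. Wnt10b had the largest difference among ligands, 3.49 higher in neuron RNA, and Wnt3 the lowest, at -1.75. Among the other classes Lrp5 differed by -3.80, Ror1 by 1.02, Sfrp1 by -1.28 and Sfrp4 by 1.43. Scaling by library size alone moved the median of all genes from 0.07 to 0.25 and gave 20 higher and 12 lower. Mitochondrial reads were 0.00814 to 0.0144% of neuron libraries and 3.41 to 7.05% of whole CA libraries. Material, RNA source, sequencing run and depth cannot be told apart in this contrast.

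**Figure D3:**
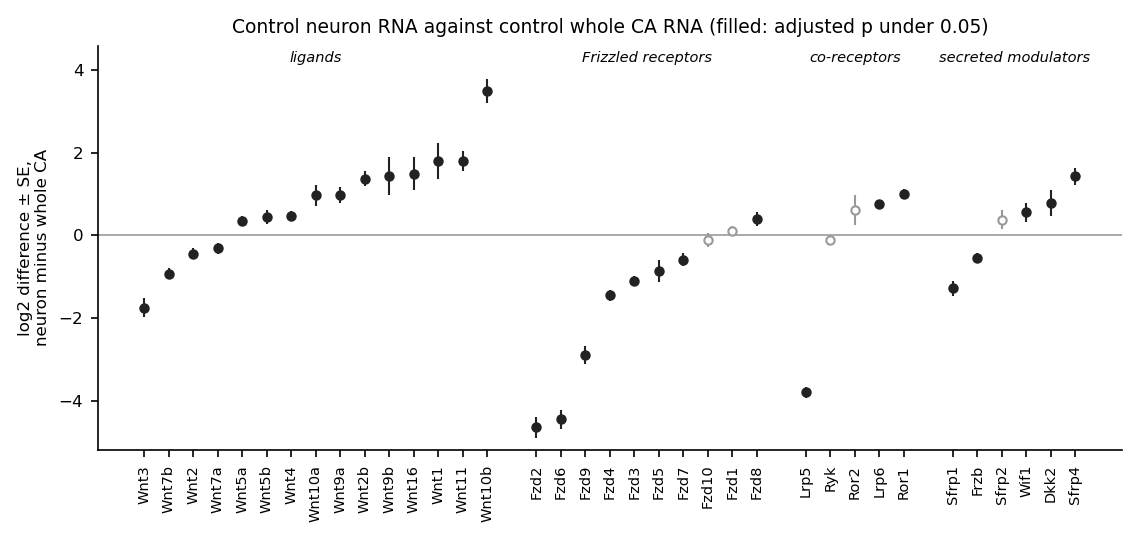
Log2 difference between control neuron RNA (3 libraries) and control whole CA RNA (6 libraries) with its standard error for the 36 genes tested, sorted within each class. Filled points passed an adjusted p under 0.05, and the Frizzled class holds 7 such points below 0 and 1 above, Fzd8, whose call was lost in 5 of 9 fits that left out 1 library.

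At the gene starts, the length under H3K4me3 peaks within 2 kb either side was shorter in cKO neurons at 4 of the 31 starts tested, those of Wnt2, Fzd10, Frzb and Ror1, and longer at none, with 7 of the 31 at an unadjusted p under 0.05 (30% of all). Over all 17911 starts tested with limma, 14.9% were called, 14.3% shorter and 0.586% longer. The share here is near that background. The 3 genes called lower in both RNA materials are among the 4. Over all genes called lower in both materials, 52.9% of the 104 with a tested start had a shorter one. Peak files hold no read counts, so a covered length is the value compared, and one input library per genotype served the peak calls, so that input and genotype cannot be told apart.

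At Wnt2 the Control libraries had 3017, 3061, 3061 and 3054 bp under H3K4me3 peaks and the cKO libraries 2760, 2677, 2557 and 2624 bp (limma adjusted p = 0.00646). At Fzd10 they had 3290, 3214, 3143 and 3107 bp against 2441, 2731, 2652 and 2767 bp (limma adjusted p = 0.00916). The groups did not overlap at either gene, both picked by their call, and the share of such starts was not counted over all starts. Frzb measured 3209, 3237, 3262 and 3244 bp in Control and 2543, 2964, 2640 and 2605 bp in cKO (limma adjusted p = 0.0122). Ror1, whose RNA was not called, measured 2346, 2395, 2518 and 2396 bp in Control and 1613, 1973, 1744 and 1985 bp in cKO (limma adjusted p = 0.0107). Every library kept a peak at all 4 starts, so the covered stretch was shorter and not absent. Within lane 1 (replicates 1 to 3, an alternative chosen after the data were seen) the adjusted p was 0.0637 for Wnt2, 0.0417 for Fzd10, 0.0889 for Frzb and 0.0442 for Ror1. Lane 2 held 1 library per genotype. Wnt10b, higher in RNA, had 1305 to 1407 bp in Control and 1321 to 1745 bp in cKO libraries, which overlapped.

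**Figure D4:**
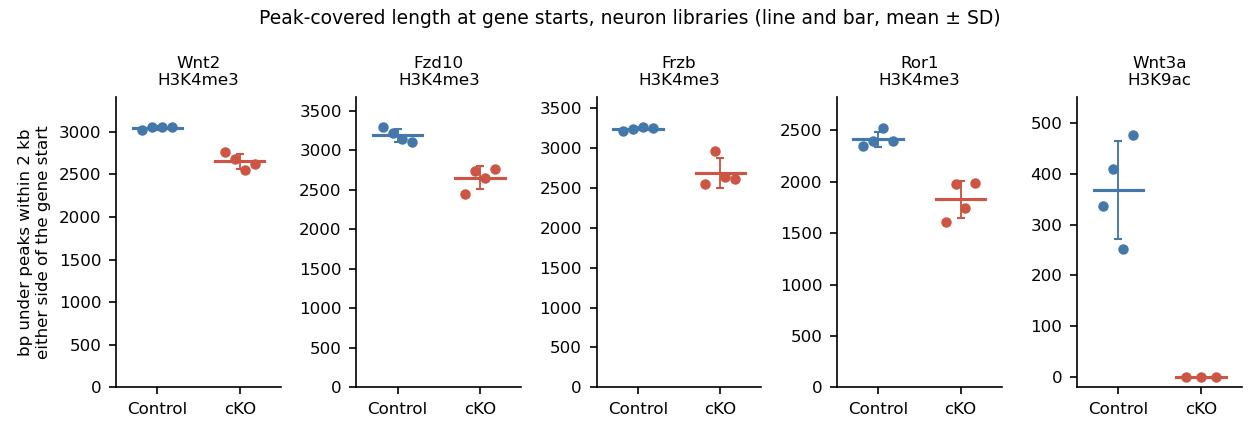
Base pairs under peaks within 2 kb either side of the gene start in each neuron library, Control (blue) and cKO (red), with mean ± SD as line and bar, for H3K4me3 at 4 genes and H3K9ac at Wnt3a. The groups are apart in each panel, and the 3 cKO libraries of the last panel lie at 0 bp. The starts were picked by their call, and Wnt3a had to be apart, so the separation is no support. The share of starts with groups apart was not counted over all starts.

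H3K9ac, an acetylation of active promoters, was called at 1 of the 30 starts tested (0.537% of all 18440 starts, 0.331% shorter), that of Wnt3a, and 6 had an unadjusted p under 0.05 (14.9% of all). The 4 Control libraries had 337, 409, 252 and 476 bp under H3K9ac peaks there, and the 3 cKO libraries 0 bp each. It passed the filter on covered libraries through the Control libraries alone and had to differ, so the call is no support. H3K4me3 at the same start covered 1943 to 2170 bp in Control and 1657 to 2142 bp in cKO libraries, with overlap (limma adjusted p = 0.432), and no H3K27ac peak was called there in any library.

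H3K4me1 was called at none of 32 starts (1.98% of all 22221) and H3K27ac at none of 18 (0.414% of all 17887), with 2 and 8 starts at an unadjusted p under 0.05 (15.3 and 12.6% of all). The log2 differences in H3K27ac length, cKO less Control, were below 0 (shorter in cKO) at all 18 (65.5% of all starts tested). Their median was -0.49, against -0.06 over all starts tested, and 15 of the 33 starts were covered in too few libraries for a test. Control replicate 1 stood apart, with 197207 H3K27ac peaks against 146411 and 169046 in the other Control libraries and 150467 to 162103 in cKO. Without that library 5 of all starts were called for H3K27ac (74 with it). The count also fell without Control replicate 3 (11) or Control replicate 4 (1), so the drop is not particular to replicate 1. The 18 differences were not summarised in these fits, so the part of any single library in them was not tested.

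Of 68 other pathway genes, 64 were tested in each material. In neuron RNA 4 were lower and 0 higher (6.25%, against 2.75% of all genes), and 19 had an unadjusted p under 0.05 (17.2% of all genes). The median log2 ratio was -0.11, against 0.02 over all genes tested. DESeq2 called 5 lower and 1 higher, and over all genes 571 lower and 262 higher. The 4 genes called by edgeR were Nkd2, which binds and restrains Dishevelled, the R-spondin receptor Lgr6, the co-repressor Tle1 and the target gene Myc. Nkd2 fell from 20.6 ± 2.31 to 10.2 ± 0.40 CPM (SD, n = 3 and 3) and Lgr6 from 3.33 ± 0.11 to 1.85 ± 0.12 CPM, and edgeR gave adjusted p of 0.000926 and 0.007. Tle1 and Myc had log2 ratios of -0.63 and -0.60 (edgeR adjusted p = 0.00371 and 0.0249). Without cKO replicate 1, cKO replicate 2, Control replicate 1 or Control replicate 2 the adjusted p of Myc was 0.0504 to 0.11.

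In whole CA RNA 2 pathway genes were lower and 1 higher (4.69%, against 4.17% of all genes). An unadjusted p under 0.05 was reached by 22 of the 64 (15.7% of all genes), and their median log2 ratio was -0.07, against -0.0027 over all genes. Nkd2 fell from 16.3 ± 1.51 to 7.2 ± 1.06 CPM (SD, n = 6 and 6; edgeR adjusted p = 5.46e-07), and no Nkd2 library of cKO reached the lowest Control library in either material. The co-repressor Tle4 and the Dishevelled-binding Invs had log2 ratios of -0.22 and 0.29 (edgeR adjusted p = 0.0417 and 0.0456). Both calls were lost when most single libraries were left out, in 10 of 12 such fits for each gene. The Tle4 call was kept without cKO replicate 5 or Control replicate 2, and the Invs call without cKO replicate 3 or Control replicate 4. Ctnnb1, which encodes β-catenin, had log2 ratios of 0.12 (neurons) and 0.03 (whole CA), and Axin2, a target that feeds back on the pathway, of -0.26 and -0.18. None of these 4 values passed the test (edgeR adjusted p between 0.236 and 0.806). Of the 11 classic target genes, 9 could be tested in neurons, and Myc was the 1 called (11.1%, against 2.75% of all genes). There 5 of the 9 had an unadjusted p under 0.05 (17.2% of all genes). For the whole region 10 were tested and 0 called, with 1 at an unadjusted p under 0.05 (15.7% of all genes).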

How the data were processed

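RNA was measured by RNA-seq in 18 libraries, and histone marks by ChIP-seq in 30. The RNA files as deposited hold 1 raw read count per Ensembl gene ID and library. The aligner, counting tool, annotation and strandedness are not given in the sources used here. The 5 summary rows of the whole CA files held 0 reads and were left out. Symbols came from the supplied table of gene names. The ChIP files as deposited are peak lists per library with the length and −log10 q-value of each peak, called with MACS2 2.1.0.20140616 or, for H3K4me3, 2.1.1.20160309, per the file headers. The submitters' processing notes name mm10, GRCm38 and SAMtools.

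Genotypes were compared within each RNA material with edgeR 4.0.16 in R 4.3.3 (TMM factors, filterByExpr, quasi-likelihood test, Benjamini-Hochberg adjustment over all genes tested), as were the materials and their interaction. CPM values use TMM-scaled library sizes. Peak-covered base pairs within 2 kb either side of each RefSeq start (GRCm38.p6) were compared as log2(bp + 100) with limma 3.58.1, for starts covered in at least 3 libraries. DESeq2 1.42.0, other scalings, filters and windows, a replicate block, lanes and leaving out each library were alternatives. Both tests were tested on simulated data. Same-numbered libraries did not deviate together in every pair (correlations of -0.057 to 0.286 for neurons, -0.064 to 0.203 for whole CA), so numbers were not taken as pairs. The genes, lists and tests were chosen with earlier results of these data known. Values per library are given for genes called in either material or by the interaction, for those with an unadjusted p under 0.05 in both materials and the same sign, for the gene with the most reads of each class in each material, and for the extremes of each class between materials. The other members are given by range and count, and Wnt1, Wnt9a, Wnt9b and Wnt10a were added after their values were seen.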

Additional observations from a re-analysis of the deposited data

Results flagged for a closer look

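In groups of 4 to 10 libraries, the highest or lowest value was set against its nearest neighbour with Dixon's criterion, which chance passes in about 5% of groups. Of 43 groups of the genes described by library, 3 passed. Wnt3 in whole CA RNA was lowest in cKO replicate 3, at 1.14 CPM, with the next library at 1.66 CPM. Wnt3a in whole CA RNA was at 0.12 CPM (2 reads) in cKO replicate 3 and at 0 in the other 5 cKO libraries. H3K4me3 at the Wnt2 start covered 3017 bp in Control replicate 1, against 3054 to 3061 bp in the other 3 Control libraries, and all 4 lay above the cKO libraries.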

How the results depend on the processing

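With the replicate block, the count of called genes among the 41 was 5 in neuron RNA (8 without it) and 4 in whole CA RNA. Wnt3a, which had to differ, is in the neuron counts with the block, without it and with 1 library left out. Leaving out 1 library gave 4 to 7 in neuron RNA, 2 to 3 in whole CA RNA and 0 to 0 for the interaction. Wnt2, Fzd8 and Fzd10 kept their neuron call in every one of these fits and with the block, with adjusted p up to 0.041. The block took the neuron calls of Wnt5a (adjusted p = 0.0561), Wnt11 (0.0729), Frzb (0.0735) and Myc (0.0787). Lane 1 alone called 0 of the 41 genes in whole CA RNA, with 3 libraries per genotype, and 1 pathway gene. The pathway count in whole CA RNA was 7 at an adjusted p under 0.1, 6 with DESeq2, 7 with the replicate block and 1 to 3 with 1 library left out (3 to 4 in neuron RNA). Without a filter the interaction called 1 gene, Wnt9b. Over all genes the neuron count of 539 was 930 at an adjusted p under 0.1, 833 with DESeq2, 327 with the block and 207 to 482 with 1 library left out. Whole CA lanes alone called 207 and 224 of all genes (640 together), and the interaction 69 without a filter and 67 with DESeq2 (28).

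At gene starts, lane 1 alone called 2 H3K4me3 starts, and leaving out 1 library gave 4 to 5 for H3K4me3 and 0 to 1 for each of the other marks. H3K27ac had 1 call at a −log10 q of at least 5. The H3K9ac count was 0 with the 5 kb window, at that q, where Wnt3a was covered in too few libraries, and with the block. The block also took the H3K4me3 call at Fzd10 (0.0558). Over all starts H3K4me3 (2669) gave 5670 with 5 kb, 1568 with the block, 967 in lane 1 and 1694 to 2943 with 1 library left out. H3K4me1 (441) gave 1705, 46 and 287 to 491, H3K27ac (74) 0 with the block and 1 to 82, and H3K9ac (99) 343, 0 and 12 to 72.

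Signs turned only in values that were not called. With 1 library left out the log2 ratios ran from -0.12 to 0.19 for Sfrp1 in neuron RNA, from -0.0693 to 0.11 for Fzd2, -0.00094 to 0.12 for Fzd3, -0.0484 to 0.0226 for Lrp6 and -0.16 to 0.0118 for Sfrp1 in whole CA RNA, and from -0.21 to 0.084 for Fzd10 between materials. Lane 1 alone turned Wnt3 (-0.0037), Fzd3 (-0.012), Fzd8 (0.22), Lrp6 (0.014) and Ctnnb1 (-0.0078), and lane 2 Sfrp1 (0.16). Scaling by library size turned Lrp6 (0.00298) and, between materials, Fzd10 (0.071). The causes were not tested. In whole CA RNA 11 of the 41 genes had too few reads for a test, as had 4 in neuron RNA.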
